A study of Gallus gallus with 2 samples.

Results

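The ZBTB family is the group of transcription factors that join an amino-terminal BTB domain, through which they pair with each other and bind corepressors, to carboxy-terminal zinc fingers that read DNA. In the thymus of mouse and human, members of this family are known as switches of lymphocyte fate. ThPOK, the product of ZBTB7B, commits thymocytes to the CD4 lineage, and PLZF, the product of ZBTB16, gives natural killer T cells and other innate-like lymphocytes their programme. In mouse, ZBTB1 is needed for lymphoid development, and ZBTB46 marks the classical dendritic cell lineage. The genes described here are the rows of the chicken count tables whose symbol starts with ZBTB and a digit. They were 34 of 28951 genes, of which 12907 carried a symbol.

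The data are droplet single-nucleus RNA counts from chicken (Gallus gallus) thymus, taken in a census of the bird's immune organs. Both libraries were made from the thymus of female chickens aged 5 weeks, with no treatment or genotype that differs, and form 1 group of 2 replicates. The labels do not state that the replicates are separate birds, so the spread between them may be technical. The protocol text, alike for both libraries, names 2 versions of the 10x 3′ kit and 2 sequencing instruments and does not say which served which library, so a difference between the libraries cannot be told apart from one of chemistry. The comparisons possible are therefore between kinds of nuclei within the same libraries. Each transcript is counted once through a unique molecular identifier (UMI). Replicate 1 kept 4861 nuclei with 3843047 UMIs, a median of 660.0 per nucleus, and replicate 2 kept 5239 nuclei with 5361419 UMIs, a median of 826. The libraries shared 13 barcode sequences among 6564 and 6050.

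No ZBTB gene was used in clustering or as a marker, and the groups were named from marker genes. The naming rules were adjusted after the ZBTB levels of the clusters had been seen, so the groups are not independent of those levels. The CD4 SP-like group came from a second round of clustering and was not named at resolution 1.5. The tested thymocyte groups were early double negative (DN)-like nuclei (149 in replicate 1 and 198 in replicate 2), CD4 single positive (SP)-like nuclei (192 and 195), gamma delta-like nuclei (516 and 493) and innate-like nuclei (431 and 406). They were set against double positive (DP)-like nuclei (2117 and 2454), the large middle stage that carries both coreceptors and rearranges its receptor. The 4 comparisons share these DP-like nuclei. The classes outside the T lineage were epithelial-like (82 and 91 nuclei), B-like (60 and 55), macrophage-like (31 and 43), dendritic-like (41 and 31) and erythroid-like (37 and 42), each set against all T-lineage nuclei (4599 and 4960).

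Levels of the naming markers follow. A group named from a list is high in it by construction, so these levels are no independent check of the names. The 12 of 16 early DN markers in the table summed to 1603 and 2227 CPM in early DN-like nuclei, 1417 and 1463 CPM in resting gamma delta-like nuclei, 5731 and 6632 CPM in B-like nuclei and 3497 and 3701 CPM in dendritic-like nuclei, against 691 and 750.4 CPM in DP-like nuclei. The list was thus highest outside the T lineage, and within it resting gamma delta-like nuclei came next after early DN-like ones. One gene of the list, KIT, a receptor of early progenitors, stood at 75.8 and 148 CPM in early DN-like nuclei against 3.47 and 2.48 CPM in DP-like nuclei. KIT was also at 60.8 and 71 CPM in innate-like and 203 and 21.3 CPM in dendritic-like nuclei. The DP markers summed to 5427 and 6252 CPM in early DN-like nuclei, against 12321 and 13677 CPM in DP-like nuclei. Of these markers, CD8BP stood at 271 and 319 CPM against 655 and 929 CPM, and CD4 at 21.7 and 28.4 CPM against 615 and 763 CPM. SOX13, a gamma delta T cell factor, stood at 1269.9 and 1761 CPM in gamma delta-like nuclei against 27.1 and 19.8 CPM in DP-like nuclei. Innate-like nuclei were named from a list with cytotoxic and natural killer genes, 12 of 19 in the table. It summed to 1947 and 1814 CPM there, of which SH3RF3, a marker taken knowing earlier results of these data, supplied 1344 and 1020 CPM. GNLY, taken likewise, stood at 246 and 413 CPM against 0 and 0 CPM in DP-like nuclei. The gamma delta list summed to more in innate-like nuclei than their own list, 2263 and 2298 CPM, against 4246 and 4853 CPM in gamma delta-like nuclei. CD4 SP-like nuclei had CD8A at 0 and 20.4 CPM and CCR7 at 304 and 285 CPM, but their CD4 level, 152 and 343 CPM, lay below the 615 and 763 CPM of DP-like nuclei. Their 11 of 12 CD4 SP markers summed to 2558 and 2920.2 CPM, below the 3104 and 3306 CPM of signalled nuclei and above the 2285 and 2087 CPM of resting DP-like nuclei, so that list does not single the group out. Among leading genes of erythroid-like nuclei were DNTT and SATB1, which are thymocyte genes, beside the haemoglobin genes. Where a pair of values belongs to 1 gene or marker list in 1 group, the first is replicate 1 and the second replicate 2. Levels are CPM, a gene's UMIs summed over the nuclei of a group in a library and scaled to a total of 1000000 UMIs.

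The family contributed 13457 UMIs in these 10100 nuclei, and 10 members supplied 70.4% of them. Totals ran from 3 UMIs for ZBTB22 to 2347 for ZBTB46. Next came ZBTB1 with 1522, ZBTB44 with 1435, ZBTB10 with 909 and ZBTB7A with 675, then ZBTB38, ZBTB41, ZBTB2, ZBTB21 and ZBTB11 with 479 to 542 each. These totals rank the members only by counting precision, because a long transcript or intron offers more to capture in nuclear RNA. By depth, 18 members had 200 or more UMIs, 9 had from 50 to under 200, and 7 had fewer than 50. All 34 had at least 1 UMI in the T lineage, and between 19 members (macrophage-like) and 31 (epithelial-like) had one in the other classes. A level of 0 in the small classes means little, since 3 counts there, the limit that a count of 0 allows, amount to 5.43 CPM in epithelial-like but 41.7 CPM in erythroid-like nuclei.

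**Figure D1:**
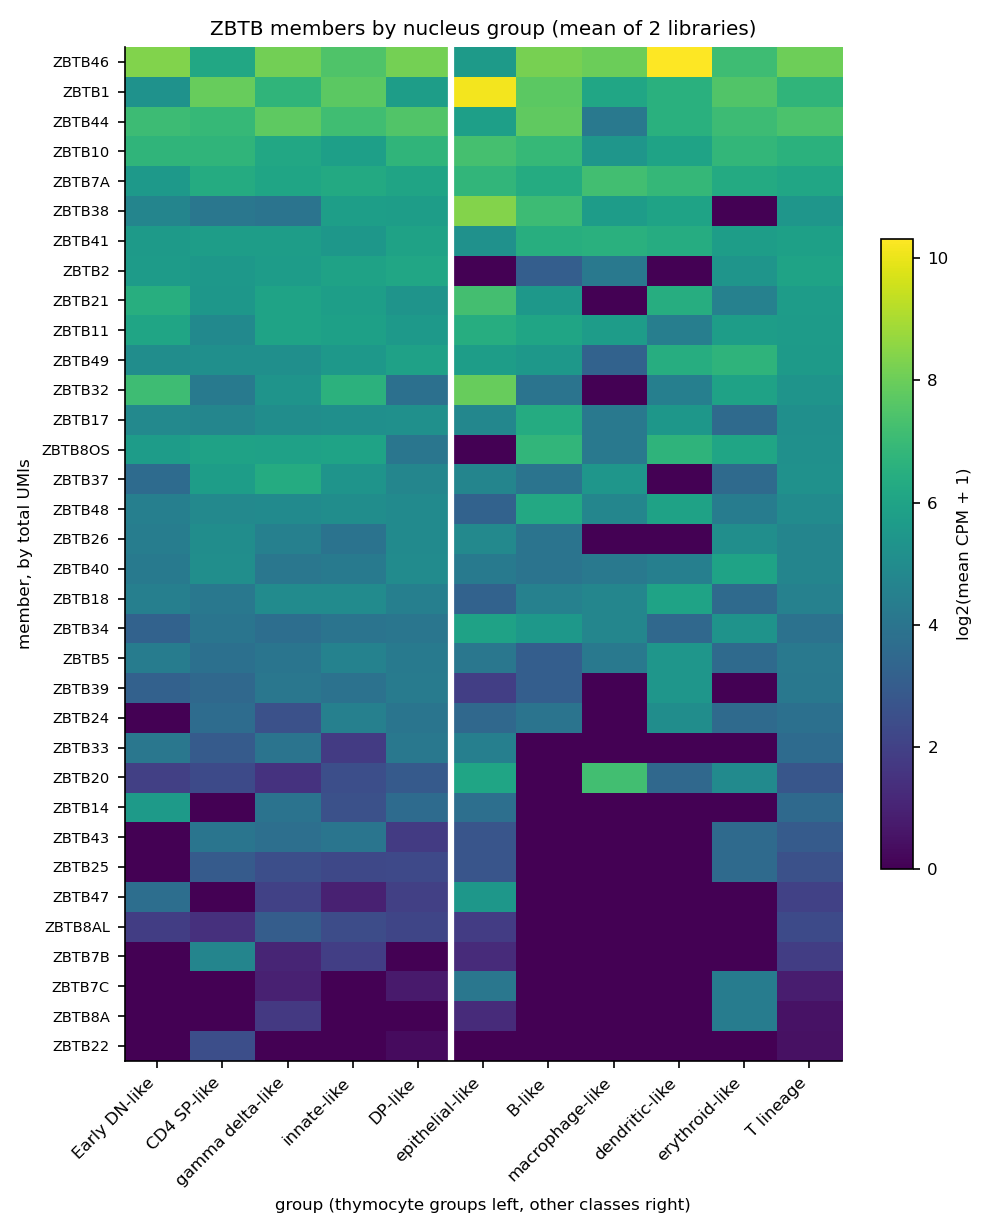
Heat map of the 34 ZBTB members (rows, ordered by total UMIs) in 5 thymocyte groups and, right of the white line, 5 other classes and the whole T lineage (columns). Colour is log2 of the mean CPM of both libraries plus 1. ZBTB46 is brightest in dendritic-like nuclei and ZBTB1 in epithelial-like nuclei, and the dark lower right corner holds members at 0 UMIs in the small classes.

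Of the 34 members, 31 had a position in the RefSeq annotation of the GRCg7b assembly. ZBTB46 lies on chromosome 20 (9911415 to 9950833), ZBTB38 on chromosome 9 (9786882 to 9877484), ZBTB44 on chromosome 24 (1644162 to 1708722) and ZBTB10 on chromosome 2 (120593405 to 120621358). No row was named ZBTB16. The RefSeq table lists ZBTB16 as a synonym of the chicken gene ZBTB32, on chromosome 24 (4523357 to 4595868) between HTR3A and RBM7. The named neighbours, in order, were CLDN25, USP28 and HTR3A before it and RBM7, REXO2 and CADM1 after it. No mammalian gene order was at hand to compare. Whether the gene called ZBTB32 here is the chicken counterpart of mammalian PLZF, or of mammalian ZBTB32 (a repressor in lymphocytes), was not tested. ZBTB8OS is in the list by its symbol only, since it encodes archease, a cofactor of transfer RNA ligation, and no zinc finger protein. The bounds of 15 members overlap those of another RefSeq gene, among them ZBTB46, ZBTB32, ZBTB38, ZBTB10, ZBTB21 and ZBTB37. ZBTB1, ZBTB22 and ZBTB39 had no position, so overlap could not be assessed for them. The table gives no strand, so reads shared with the overlapping gene could not be checked.

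The clearest stage pattern belonged to ZBTB32. It was high in early DN-like and innate-like nuclei and low in DP-like and CD4 SP-like nuclei. It stood at 129.98 and 142 CPM in early DN-like nuclei, against 15.3 and 10.4 CPM in DP-like nuclei. Both early values lay several times above both DP-like values. The log2 fold change was 3.29 ± 0.36 (SE), with adjusted p = 7.92e-05 by the quasi-likelihood test of edgeR, adjusted after Benjamini and Hochberg over every gene tested, as were all adjusted p-values that follow. In innate-like nuclei ZBTB32 was at 109 and 85.9 CPM, a log2 fold change of 2.79 ± 0.35 over DP-like nuclei (edgeR, adjusted p = 8.98e-05). In gamma delta-like nuclei it was at 49.2 and 29.2 CPM, lower than in innate-like nuclei in both libraries but above the DP-like level, with a log2 fold change of 1.47 ± 0.38 (edgeR, adjusted p = 0.0201). CD4 SP-like nuclei, at 18.4 and 17 CPM, overlapped neither the early nor the innate-like range. Nuclei with T cell receptor signalling genes held 21.6 and 3.67 CPM.

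A cluster of T-lineage nuclei led by DNTT, CDK6 and HMCN1 (434 and 476 nuclei) was left unnamed, because it shared leading genes with the early DN-like nuclei. Its 11 of 13 DP markers summed to 18035 and 19375 CPM, the highest of all groups, against 12321 and 13677 CPM in DP-like nuclei. Of these markers, CD4 stood at 102 and 193 CPM against 615 and 763 CPM, and CD8A at 182 and 195 CPM against 423 and 473 CPM. CD8BP stood at 360 and 563 CPM against 655 and 929 CPM, and RAG1 at 502 and 435 CPM against 711 and 679 CPM. The coreceptors and RAG1 were thus lower than in DP-like nuclei, and the higher sum came from other genes of the list. The cluster held ZBTB32 at 49.5 and 87.1 CPM, between the early DN-like and DP-like levels. With this cluster counted as DP-like, the log2 fold change of ZBTB32 was 2.46 in early DN-like and 1.97 in innate-like nuclei, and both passed (edgeR, adjusted p = 0.000453 and 0.000646). The gamma delta-like difference was then 0.67 and missed the threshold (edgeR, adjusted p = 0.259).

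The early DN-like nuclei were all in a cycling cluster, and DP-like nuclei held cycling and resting clusters. Summed over the 14 of 16 proliferation markers in the table, they stood at 4874 and 4469 CPM, against 4190.4 and 2617 CPM in DP-like nuclei. Cycling DP-like nuclei had a higher proliferation sum, 7919 and 5932 CPM, and their ZBTB32 level was 16.2 and 18.3 CPM. The early DN-like and innate-like calls for ZBTB32 passed in 10 of 10 and 11 of 11 alternative analyses with a test. The gamma delta-like call passed in 7 of 11.

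ZBTB7B, the gene of ThPOK, was among the rarest members, with 24 UMIs, and 14 of the 23 in the T lineage were in CD4 SP-like nuclei. It had 2 and 12 UMIs there (9.22 and 40.7 CPM), against 0 and 0 UMIs in DP-like nuclei among 3457080 UMIs of all genes. Pooled over both libraries, the CD4 SP-like level was 31.5 times the level that 3 counts would give in DP-like nuclei. From replicate 2 alone, which supplied 12 of the 14 UMIs, it was 27.4 times that level. The counting error of the 14 and 12 UMIs is not in these ratios, so they are no lower bounds. The 2 UMIs of replicate 1 lie under the 3 counts (13.8 CPM) that a count of 0 allows there, so replicate 1 gives no fold. The other T-lineage groups had 4 UMIs (signalled nuclei), 3 (innate-like), 1 (gamma delta-like) and 0 (early DN-like). ZBTB7B did not reach the minimum count for the test. Without that filter on low counts, edgeR gave it an adjusted p of 0.00974 in CD4 SP-like against DP-like nuclei. The rules that separated CD4 SP-like nuclei were adjusted after ZBTB levels had been seen. Neither this p-value nor the share of UMIs in that group is therefore independent of the naming.

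ZBTB1, a factor needed for lymphoid development in mouse, was higher in the mature-like and innate-like nuclei than in the DP-like stage. It stood at 267 and 217 CPM in CD4 SP-like nuclei, against 46.5 and 58 CPM in DP-like nuclei, a log2 fold change of 2.07 ± 0.33 (edgeR, adjusted p = 0.000616). Innate-like nuclei held 219 and 196 CPM, and the log2 fold change was 1.82 ± 0.31 (edgeR, adjusted p = 0.00095). Neither group's range overlapped that of DP-like nuclei, and the ranges of CD4 SP-like and innate-like nuclei overlapped. Nuclei with signalling genes were as high, at 220.4 and 283 CPM, while early DN-like nuclei were at 59.6 and 14.2 CPM and the DNTT-led cluster at 49.5 and 35.3 CPM. In gamma delta-like nuclei the level was 141 and 71.2 CPM, with a log2 fold change of 0.82 ± 0.33 that missed the threshold (edgeR, adjusted p = 0.134). The CD4 SP-like and innate-like calls for ZBTB1 passed in 10 of 10 and 11 of 11 alternative analyses.

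ZBTB46, the dendritic lineage factor, was broadly present in thymocytes and lowest in CD4 SP-like nuclei. CD4 SP-like nuclei had 87.6 and 57.7 CPM, against 275 and 303 CPM in DP-like nuclei, a log2 fold change of -2.12 ± 0.23 (edgeR, adjusted p = 2.96e-05). Innate-like nuclei had 179.9 and 179 CPM, a log2 fold change of -0.82 ± 0.17 (edgeR, adjusted p = 0.00396). Both groups lay below DP-like nuclei in both libraries. Early DN-like nuclei, at 319.5 and 333 CPM, and gamma delta-like nuclei, at 277 and 272 CPM, were near the DP-like level, with log2 fold changes of 0.03 ± 0.18 and -0.19 ± 0.17 (edgeR, adjusted p = 0.941 and 0.543). The DP-like level mixes cycling and resting nuclei, whose ZBTB46 levels differed, as given below. Early DN-like nuclei, all in a cycling cluster, lay above cycling DP-like nuclei in both libraries. Signalled nuclei, at 177 and 143 CPM, were as low as innate-like ones. The DNTT-led cluster had 429 and 337 CPM, above DP-like nuclei in both libraries. The dendritic markers summed to 304 and 285 CPM in CD4 SP-like nuclei, against 4.86 and 11.9 CPM in DP-like nuclei. CCR7, which mature thymocytes also carry, was the marker behind the CD4 SP-like sum.

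**Figure D2:**
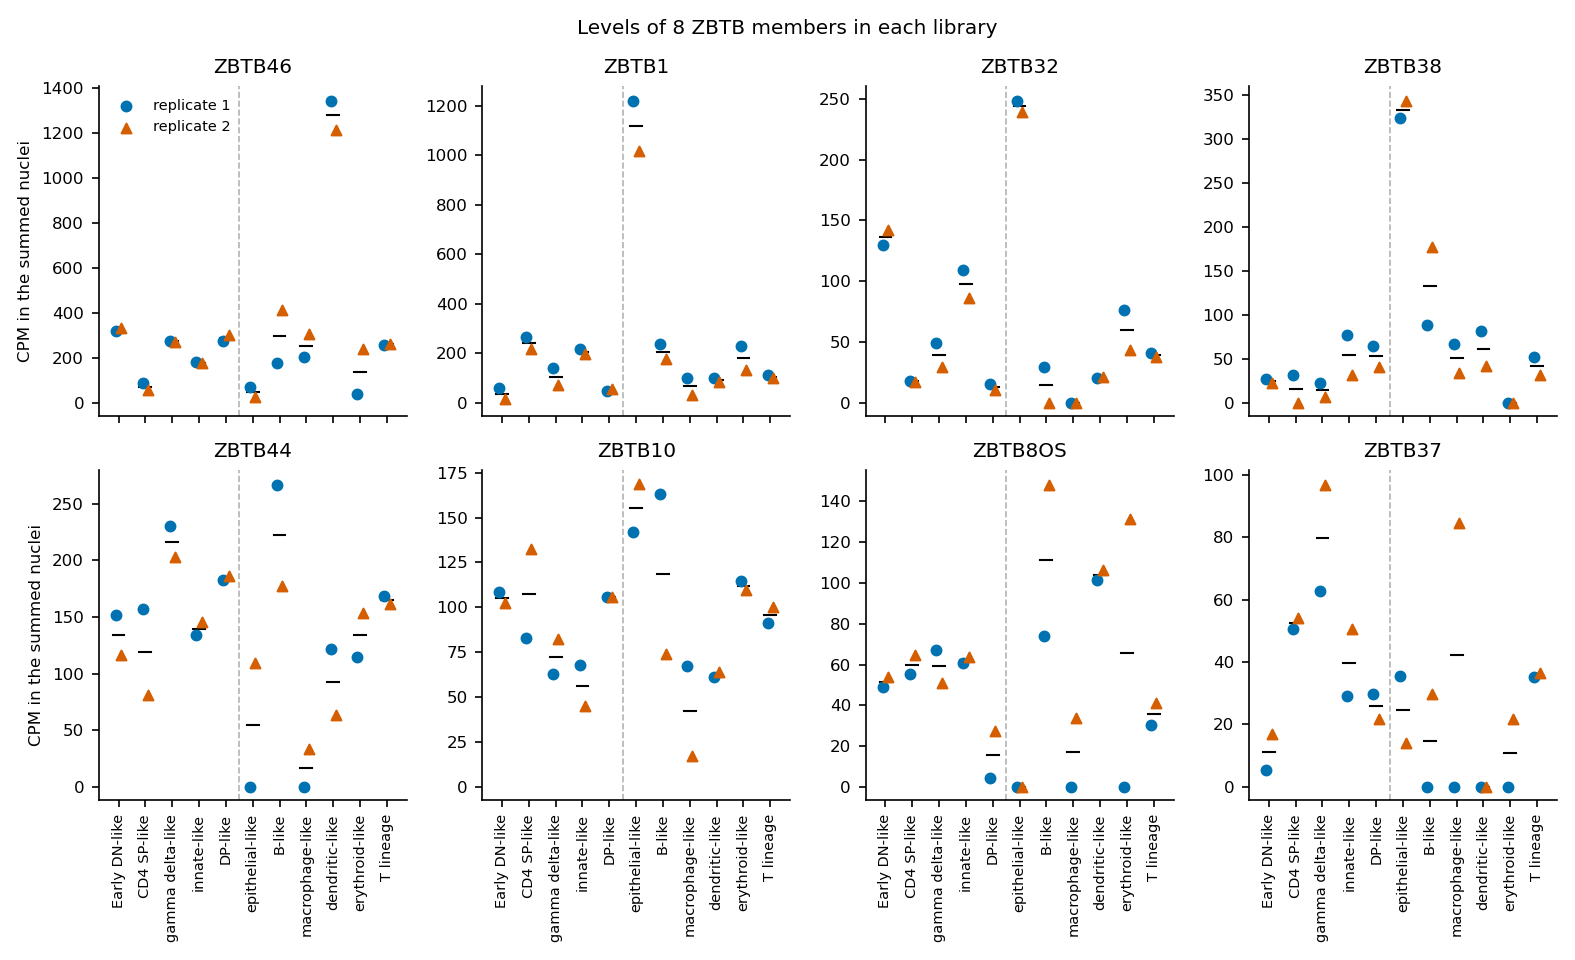
CPM (vertical axis) of 8 ZBTB members in the thymocyte groups and, right of the dashed line, the other classes. Circles are replicate 1, triangles replicate 2, and the short line is their mean. ZBTB32 is high in early DN-like, innate-like and epithelial-like nuclei, and ZBTB8OS and ZBTB44 show a wide gap between libraries in the small classes.

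ZBTB38 and ZBTB33 are members that bind methylated DNA. ZBTB38, a methyl-CpG binding factor, stood at 22.4 and 7.3 CPM in gamma delta-like nuclei, against 65.2 and 41.2 CPM in DP-like nuclei, a log2 fold change of -2.07 ± 0.61 (edgeR, adjusted p = 0.0379). In CD4 SP-like nuclei it was at 32.3 and 0 CPM, a log2 fold change of -2.10 ± 0.70 (edgeR, adjusted p = 0.048). The gamma delta-like values were below both DP-like values, as were the CD4 SP-like ones, where replicate 2 had no UMI. From replicate 1 alone the CD4 SP-like difference was -1.11. These calls passed in 5 of 11 and 4 of 10 alternative analyses. ZBTB33, known as Kaiso, shifted between libraries instead: cycling and resting DP-like nuclei held 18 and 0 UMIs in replicate 1 but 1 and 40 in replicate 2. It passed in no comparison with the filter on low counts, and without that filter it fell in innate-like against DP-like nuclei (log2 fold change -3.44, edgeR, adjusted p = 0.0217).

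Among the other members with a call, ZBTB10 and ZBTB44 were lower and ZBTB37 and ZBTB8OS higher than in DP-like nuclei. ZBTB10, which binds variant telomere repeats in human cells, stood at 68.1 and 44.8 CPM in innate-like nuclei, against 105 and 106 CPM in DP-like nuclei (log2 fold change -1.06 ± 0.30, edgeR, adjusted p = 0.02). ZBTB44 stood at 157 and 81.4 CPM in CD4 SP-like nuclei, against 183 and 186 CPM in DP-like nuclei (log2 fold change -0.78 ± 0.25, edgeR, adjusted p = 0.0425). The single-library differences of ZBTB44 were -0.33 in replicate 1 and -1.26 in replicate 2, so replicate 2 carried most of it. The ZBTB10 call passed in 9 of 11 alternative analyses and the ZBTB44 call in 5 of 10, with adjusted p up to 0.107 and 0.182. ZBTB37 stood at 62.6 and 96.7 CPM in gamma delta-like nuclei, against 29.8 and 21.8 CPM in DP-like nuclei (log2 fold change 1.48 ± 0.41, edgeR, adjusted p = 0.0297). Its single-library differences were 0.92 in replicate 1 and 2.01 in replicate 2, with both libraries on the same side. That call passed in 7 of 11 alternative analyses and was lost with DESeq2, with adjusted p up to 0.146.

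ZBTB8OS, the archease gene, had higher values than in DP-like nuclei in all 4 thymocyte groups and both libraries, and passed the test in 3 of them. It was at 48.7 and 54 CPM in early DN-like nuclei, 55.3 and 64.4 CPM in CD4 SP-like nuclei, 67.1 and 51.1 CPM in gamma delta-like nuclei and 60.8 and 63.5 CPM in innate-like nuclei, against 4.16 and 27.3 CPM in DP-like nuclei. In early DN-like nuclei the log2 fold change of 1.57 ± 0.62 missed the threshold (edgeR, adjusted p = 0.109). In the others, in the same order, the log2 fold changes were 1.86 ± 0.61, 1.85 ± 0.57 and 1.89 ± 0.57 (edgeR, adjusted p = 0.0444, 0.0469 and 0.0273). The values of those groups were close across libraries, and DP-like nuclei were not. Their single-library differences were 3.40, 3.66 and 3.51 in replicate 1 and 1.14, 0.79 and 1.07 in replicate 2. The 3 calls passed in 6 of 10, 5 of 11 and 8 of 11 alternative analyses.

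Counted over the family, 24 of the 34 members reached the minimum count for the thymocyte comparisons. In early DN-like nuclei 1 of the 24 rose (ZBTB32) and 0 fell, where 18.3% of all 7596 genes tested passed, 7.89% higher and 10.4% lower. In CD4 SP-like nuclei 2 rose (ZBTB1 and ZBTB8OS) and 3 fell (ZBTB46, ZBTB44 and ZBTB38), against 25.4% of all genes, 11.6% higher and 13.9% lower. In gamma delta-like nuclei 3 rose (ZBTB32, ZBTB37 and ZBTB8OS) and 1 fell (ZBTB38), against 16.1% of all genes, 9.02% higher and 7.07% lower. In innate-like nuclei 3 rose (ZBTB32, ZBTB1 and ZBTB8OS) and 2 fell (ZBTB46 and ZBTB10), against 26.8%, 13.5% higher and 13.3% lower. Except in early DN-like nuclei, where 1 in 24 is below it, these shares lie near those of all genes. By the count of calls the family did not stand out there. The median log2 fold change of the 24 was -0.54 in early DN-like, -0.42 in CD4 SP-like, -0.15 in gamma delta-like and -0.20 in innate-like nuclei, beside -0.04, -0.06, 0.00 and -0.02 over all genes. The family's median was the lower in each comparison, and this shift was not tested. In gamma delta-like nuclei DESeq2 called 0 of the 24, with 4 at an unadjusted p under 0.05, and edgeR without the library block called 1. In CD4 SP-like nuclei edgeR without the block called 2.

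**Figure D3:**
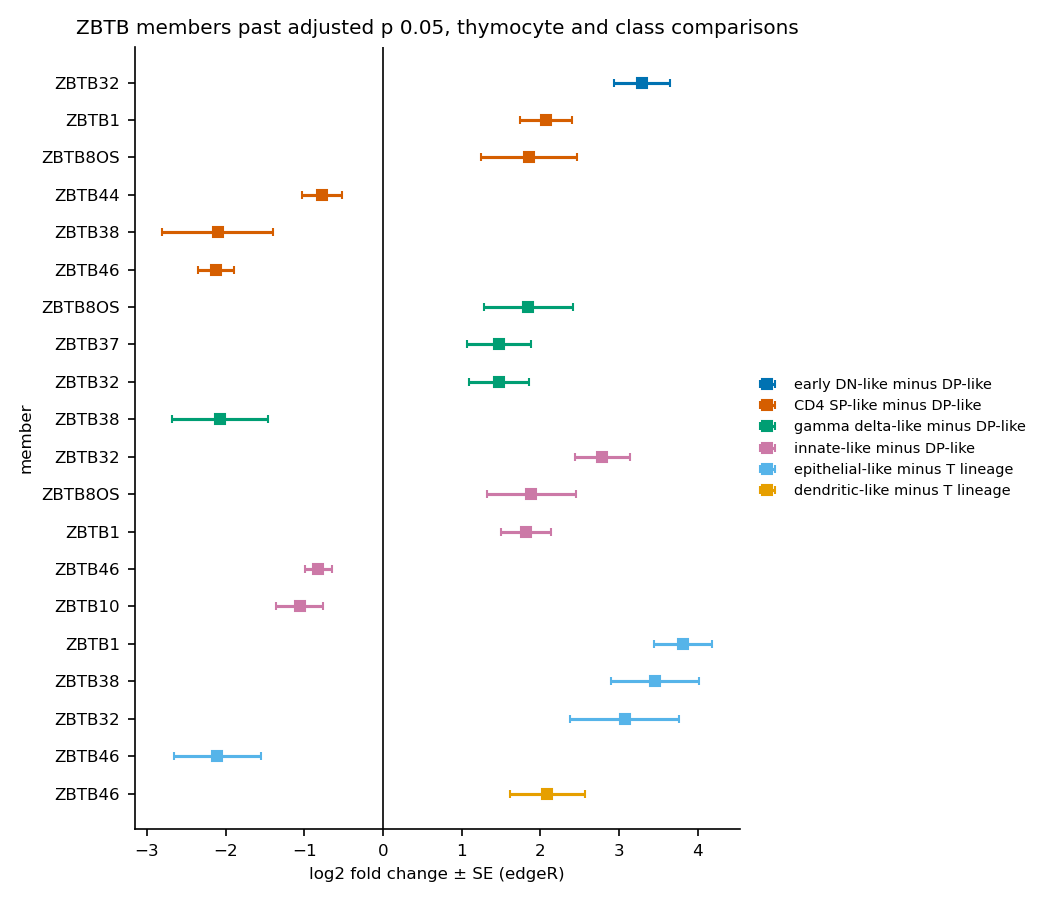
Log2 fold change ± SE (horizontal axis, edgeR) of each ZBTB member that passed an adjusted p of 0.05 in the thymocyte and class comparisons (colour). Points right of 0 are higher in the first-named group. ZBTB32 lies right of 0 in 4 comparisons, and ZBTB46 lies left of 0 in 3 and right of 0 in dendritic-like nuclei.

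Cycling and resting nuclei were then compared within the DP-like and gamma delta-like groups, a comparison added after the levels had been seen. Cycling DP-like nuclei numbered 821 and 716, against 1296 and 1738 resting ones, and cycling gamma delta-like nuclei 214 and 179, against 302 and 314. Of 21 members tested, 2 rose and 1 fell in cycling DP-like nuclei, where 28.4% of 7220 genes passed, 16.1% higher and 12.3% lower. In cycling gamma delta-like nuclei 0 rose and 2 fell, where 5.69% passed, 3.42% higher and 2.27% lower. ZBTB21, a partner of ZBTB38 in human cells, stood at 78.1 and 68.7 CPM in cycling DP-like nuclei, against 8.59 and 9.62 CPM in resting ones, a log2 fold change of 2.77 ± 0.61 (edgeR, adjusted p = 0.00409). In cycling gamma delta-like nuclei ZBTB21 was at 78.3 and 53.6 CPM, against 36.8 and 80.1 CPM in resting ones, so the libraries moved in opposite directions there. ZBTB14, a repressor of MYC in mouse, had 38 UMIs in cycling and 1 in resting DP-like nuclei. That is a ratio of 43.3 in CPM, with an exact 95% counting interval of 7.32 to 1755 that ignores the spread between libraries (edgeR, adjusted p = 0.0245). The ZBTB14 call passed in 8 of 9 alternative analyses and was lost with separate UMIs for clustering and testing (edgeR, adjusted p = 0.0552). The ZBTB21 call passed in 9 of 9. In cycling against resting gamma delta-like nuclei the log2 fold change of ZBTB14, 1.66 ± 1.37, missed the threshold (edgeR, adjusted p = 0.657). Early DN-like nuclei, all cycling, also held ZBTB14, at 65 and 31.3 CPM.

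ZBTB46 was lower in cycling nuclei of both groups. It stood at 210.1 and 237 CPM in cycling DP-like nuclei, against 344 and 353 CPM in resting ones (log2 fold change -0.88 ± 0.19, edgeR, adjusted p = 0.00403). In cycling gamma delta-like nuclei it stood at 161 and 218 CPM, against 400.3 and 321 CPM in resting ones (log2 fold change -0.93 ± 0.23, edgeR, adjusted p = 0.0312). All 4 pairs had the cycling value below the resting one. ZBTB1 stood at 56.5 and 19.2 CPM in cycling gamma delta-like nuclei, against 230.1 and 118 CPM in resting ones (log2 fold change -2.22 ± 0.48, edgeR, adjusted p = 0.0146). In DP-like nuclei its log2 fold change of -1.05 ± 0.39 missed the threshold (edgeR, adjusted p = 0.0587). Tested directly, the cycling effect differed between gamma delta-like and DP-like nuclei for 0 of the 21 members by edgeR, with 3 (ZBTB21, ZBTB40 and ZBTB7A) at an unadjusted p under 0.05, where 3.85% of all genes passed. DESeq2 called 0 of the 21 as well, with 1 at an unadjusted p under 0.05.

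With the cycling clusters left out, ZBTB46 in CD4 SP-like nuclei was set against resting DP-like nuclei alone, and it passed again. In that setting ZBTB21 rose in CD4 SP-like, gamma delta-like and innate-like nuclei, with log2 fold changes of 1.94, 2.42 and 2.22 (edgeR, adjusted p = 0.0438, 0.0176 and 0.0178). ZBTB1 rose in gamma delta-like nuclei, by 1.16 (edgeR, adjusted p = 0.0282). All 4 gamma delta-like calls given above (ZBTB32, ZBTB37, ZBTB38 and ZBTB8OS) were lost in that setting, with edgeR adjusted p from 0.0506 to 0.167 and the same signs. ZBTB10 and ZBTB8OS were lost in innate-like nuclei and ZBTB8OS in CD4 SP-like nuclei, leaving 3 of 5 and 4 of 5.

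**Figure D4:**
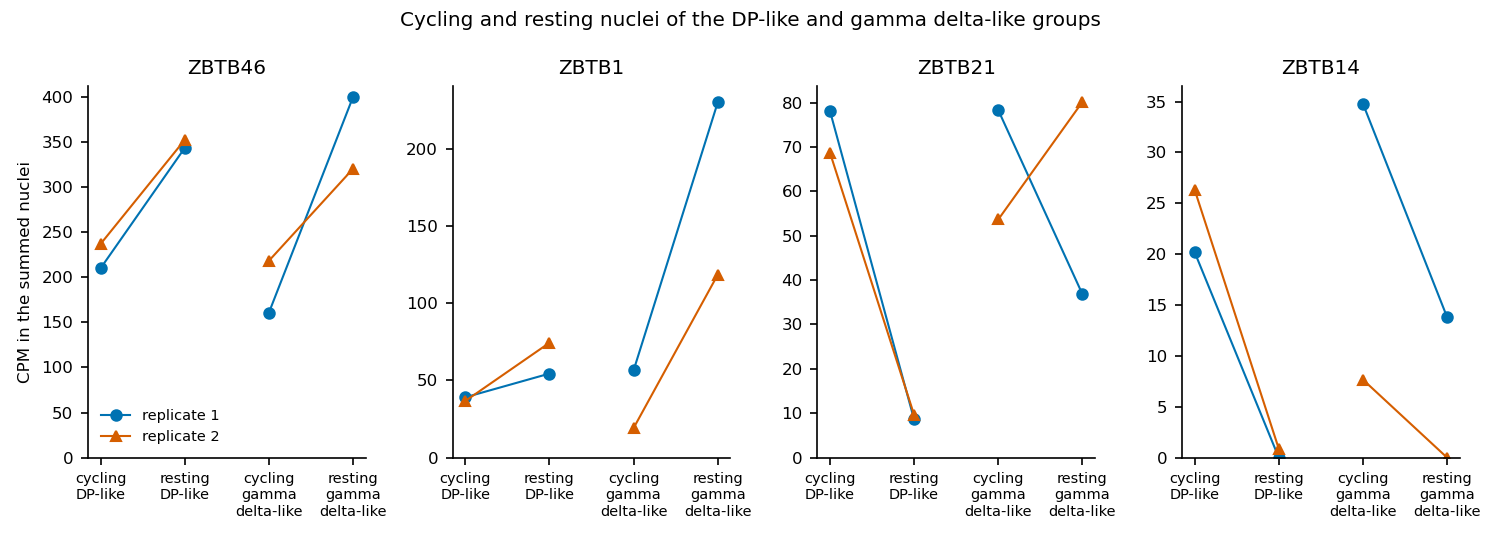
CPM (vertical axis) of ZBTB46, ZBTB1, ZBTB21 and ZBTB14 in cycling and resting nuclei of the DP-like and gamma delta-like groups. Lines join the values of 1 library. ZBTB46 is lower in cycling nuclei in all 4 pairs, and ZBTB21 is near 9 CPM in resting DP-like nuclei of both libraries.

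Outside the T lineage, ZBTB46 and ZBTB1 had the highest levels measured in the family, each in a different class. ZBTB46 stood at 1342 and 1212 CPM in dendritic-like nuclei, against 259 and 261 CPM in T-lineage nuclei. Both dendritic-like values exceeded every other group's, and the log2 fold change was 2.09 ± 0.48 (edgeR, adjusted p = 0.00546). In the dendritic-like class the 9 of 12 dendritic markers in the table summed to 4107 and 4275 CPM, against 69.9 and 83.5 CPM in the T lineage. The 12 of 14 T-lineage markers in the table summed to 2399 and 2765 CPM in it, against 14963 and 16855 CPM in the T lineage. The part of T-lineage RNA or doublets in this class was not tested. Of the 6 members that reached the minimum count in the class comparison, this was the 1 that passed in dendritic-like nuclei, where 19.2% of 3138 genes did.

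Epithelial-like nuclei, which carried FOXN1 among their leading genes, had the highest levels of ZBTB1, ZBTB38 and ZBTB32. ZBTB1 stood at 1220.3 and 1017 CPM, against 112 and 102 CPM in T-lineage nuclei, a log2 fold change of 3.82 ± 0.37 (edgeR, adjusted p = 5.16e-07). ZBTB38 stood at 324 and 344 CPM, against 52.2 and 31.4 CPM (log2 fold change 3.46 ± 0.56, edgeR, adjusted p = 9.43e-05), and ZBTB32 at 248 and 239 CPM, against 40.9 and 37.7 CPM (log2 fold change 3.07 ± 0.69, edgeR, adjusted p = 0.00154). In each of these the epithelial-like values of both libraries lay far above those of the T lineage. ZBTB46 went the other way, at 70.9 and 25.3 CPM, against 259 and 261 CPM in T-lineage nuclei (log2 fold change -2.10 ± 0.55, edgeR, adjusted p = 0.00412). Thus 3 of the 6 members tested rose and 1 fell, where 56.8% of all genes passed, 28.2% higher and 28.6% lower. ZBTB38 and ZBTB32 reached the minimum count of this comparison through their high epithelial-like values. ZBTB2, which had no UMI in epithelial-like nuclei, did not reach it. The count of rises is therefore shaped by the filter and is no result about the family.

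ZBTB2 and ZBTB8OS had 0 UMIs in epithelial-like nuclei of both libraries, against 512 and 298 UMIs in the T lineage. Pooled over the libraries, their T-lineage levels were 11.5 and 6.72 times the level that 3 counts would give in epithelial-like nuclei. These CPM ratios are without edgeR's scaling factors, which were 0.690 and 0.678 for epithelial-like against 0.976 and 0.966 for T-lineage sums. The fitted fold changes include them, so the fitted rises of called members were larger than their CPM ratios and the fitted fall of ZBTB46 was smaller. One of the 2 epithelial-like clusters held 7 nuclei of replicate 1 and 47 of replicate 2, with a median of 4900 UMIs. Without it the log2 fold changes were 3.66 for ZBTB1, 3.22 for ZBTB38, 2.74 for ZBTB32 and -2.01 for ZBTB46, and all 4 passed. T-lineage markers summed to 15.2 and 482 CPM in epithelial-like nuclei.

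B-like, macrophage-like and erythroid-like nuclei gave 0 calls by edgeR among the 6 members tested, where 13.9%, 26.4% and 7.49% of all genes passed. At an unadjusted p under 0.05 there were 1, 2 and 1 members, and DESeq2 called 1 (ZBTB38 in B-like nuclei), 0 and 0. T-lineage markers summed to 4313 and 7354 CPM in erythroid-like, 2888 and 1125 CPM in B-like and 67.4 and 1169 CPM in macrophage-like nuclei. The T lineage itself stood at 14963 and 16855 CPM. The part of T-lineage RNA or doublets in these classes was not tested. ZBTB20, which acts in monocytes and plasma cells in mouse, did not reach the minimum count. It stood at 101 and 186 CPM in macrophage-like nuclei, from 14 UMIs, and at 86.1 and 47.9 CPM in epithelial-like nuclei, from 34 UMIs, against 3.19 and 8.47 CPM in the T lineage. Both classes lay above the T lineage in both libraries. Without the filter on low counts it passed in both, with edgeR adjusted p of 0.00814 and 0.0228.

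Several well-counted members passed in no comparison with the filter on low counts, though without it ZBTB2 passed in epithelial-like and ZBTB11 in cycling DP-like nuclei. ZBTB7A, also called LRF, stood at 54.2 and 39.8 CPM in early DN-like and 50.7 and 109 CPM in CD4 SP-like nuclei, against 47.2 and 81.3 CPM in DP-like nuclei, with replicate 2 the higher library in DP-like and CD4 SP-like nuclei and the lower in early DN-like nuclei. ZBTB17, known as MIZ1, a partner of MYC, stood at 5.42 and 51.2 CPM in early DN-like and 19.4 and 48.6 CPM in innate-like nuclei, against 25 and 44.6 CPM in DP-like nuclei. ZBTB41, ZBTB2 and ZBTB11, which complete the 10 members with the most UMIs, had log2 fold changes between -0.70 and 0.32 in the thymocyte comparisons. ZBTB24, a DNA methylation factor mutated in a human immunodeficiency, had no UMI in early DN-like nuclei, against 14 and 41 UMIs in DP-like nuclei. Pooled, the DP-like level was 2.84 times the level that 3 counts would give in early DN-like nuclei. ZBTB24 passed by edgeR only with other filters on low counts (adjusted p = 0.0221 and 0.0388). A missed threshold does not show equal levels.

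Replicates agreed less for the sparse members than the pooled totals show. Among 103 pairs of a member and a thymocyte group with 10 or more UMIs in a library, 8 (7.77%) had 0 in the other, beside 2.79% of 35102 such pairs over all genes. These shares were not matched for UMI count, and the part of low counts in the gap was not tested. ZBTB49, an activator of the cell cycle inhibitor p21, had 0 and 38 UMIs in gamma delta-like nuclei and 0 and 20 in CD4 SP-like nuclei. ZBTB43 had 0 and 16 UMIs in innate-like nuclei, and 2 UMIs in replicate 1 against 66 in replicate 2 over all groups analysed. ZBTB26 had 0 and 19 in CD4 SP-like nuclei. The remaining pairs were ZBTB26 in early DN-like, ZBTB11 in CD4 SP-like, and ZBTB33 and ZBTB43 in gamma delta-like nuclei. The deposited matrices had been corrected for free RNA, and the part of that step in these zeros was not tested.

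Genes around the family gave a frame for these values, and their counts stand beside the shares of all genes given above for each comparison. Of the ZBTB proteins that carry other symbols, 7 were in the table and 5 were tested among thymocytes. BCL6, the factor of follicular helper T cells, fell in early DN-like nuclei, at 32.5 and 25.6 CPM, against 77 and 143 CPM in DP-like nuclei (log2 fold change -2.13 ± 0.39, edgeR, adjusted p = 0.00291). It rose in gamma delta-like nuclei, at 322 and 358 CPM (log2 fold change 1.52 ± 0.23, adjusted p = 0.000731), and in innate-like nuclei, at 275 and 305 CPM (log2 fold change 1.27 ± 0.24, adjusted p = 0.00164, both edgeR). ZNF131 fell in CD4 SP-like nuclei (log2 fold change -1.01 ± 0.30, edgeR, adjusted p = 0.0295). In the 4 comparisons with DP-like nuclei these were the only calls among the 5. There was 1 lower in each of early DN-like and CD4 SP-like nuclei, and 1 higher in each of gamma delta-like and innate-like nuclei. In cycling against resting DP-like nuclei BCL6 and PATZ1 fell (log2 fold changes -1.11 and -1.31, edgeR, adjusted p = 0.0069 and 0.0384). Of 2 tested in the classes, HIC2 rose in epithelial-like, B-like, macrophage-like and dendritic-like nuclei, by 3.27, 3.51, 3.83 and 3.32 (edgeR, adjusted p = 0.00831, 0.0309, 0.0139 and 0.0497). Its UMIs were 13 and 18 in epithelial-like, 7 and 8 in B-like, 0 and 13 in macrophage-like and 6 and 3 in dendritic-like nuclei. HIC2 reached the minimum count through high values in macrophage-like nuclei of replicate 2 (220 CPM) and erythroid-like nuclei of replicate 1 (229 CPM). Its place in the class comparison is therefore shaped by the filter.

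Among 10 tested regulators with a BTB domain but no ZBTB name, 1 rose in early DN-like, 2 rose in CD4 SP-like, and 1 rose and 1 fell in each of gamma delta-like and innate-like nuclei. BACH2, a repressor that keeps lymphocytes resting, stood at 1811 and 1611 CPM in CD4 SP-like, 2877 and 2879.8 CPM in gamma delta-like and 1835 and 1618 CPM in innate-like nuclei, against 319 and 364 CPM in DP-like nuclei. Its log2 fold changes there were 2.22 ± 0.13, 2.96 ± 0.13 and 2.20 ± 0.13 (edgeR, adjusted p = 3.45e-07, 5.89e-08 and 2.25e-07). Corepressors, the partners of BTB domains, moved both ways, with 18 tested. In early DN-like nuclei 2 rose and 3 fell, in CD4 SP-like 1 and 4, in gamma delta-like 1 and 3, and in innate-like 2 and 3. The lowest adjusted p among them in innate-like nuclei was that of TBL1X, at 3216 and 2941 CPM, against 1425 and 1585 CPM in DP-like nuclei (log2 fold change 0.90 ± 0.12, edgeR, adjusted p = 0.000108). The histone deacetylase HDAC7 stood at 316 and 376 CPM in innate-like nuclei, against 666 and 658 CPM in DP-like nuclei (log2 fold change -1.07 ± 0.16, edgeR, adjusted p = 0.000272).

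Genes of the innate-like programme around PLZF, 20 of them tested, were called higher more often than lower in every group but early DN-like nuclei. The list was not limited to genes that PLZF controls. There were 13 higher and 3 lower in innate-like, 11 and 1 in gamma delta-like, 11 and 2 in CD4 SP-like, and 5 and 7 in early DN-like nuclei. Of all genes, 13.5% were higher and 13.3% lower in innate-like, 9.02% and 7.07% in gamma delta-like, 11.6% and 13.9% in CD4 SP-like, and 7.89% and 10.4% in early DN-like nuclei. The medians of the list were 1.43, 1.07, 1.15 and -0.49 on the log2 scale, beside all-gene medians within 0.06 of 0. Of the 25 genes in the table, 9 had also served to name groups, and without them the counts were 7 and 3, 6 and 1, 6 and 2, and 2 and 7 of 14. The medians without them were 0.85, 0.37, 0.58 and -1.24, in the same order of groups. TOX, a factor of CD4 and innate lymphocyte development, stood at 1473 and 1586 CPM in innate-like nuclei, against 137 and 122 CPM in DP-like nuclei (log2 fold change 3.43 ± 0.14, edgeR, adjusted p = 2.23e-08). IL7R, the interleukin 7 receptor, stood at 435 and 369.9 CPM, against 9.72 and 7.94 CPM in DP-like nuclei (log2 fold change 5.35 ± 0.21, edgeR, adjusted p = 2.23e-08).

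Of 15 tested genes around the choice between the CD4 and CD8 lineages, 6 rose and 5 fell in CD4 SP-like nuclei. Without the 5 that are naming markers, 3 rose and 3 fell of 10. TOX had the lowest adjusted p there, at 1636 and 1547 CPM, against 137 and 122 CPM in DP-like nuclei (log2 fold change 3.52 ± 0.14, edgeR, adjusted p = 3.3e-08). LEF1, a partner of TCF7, stood at 1503 and 1764 CPM in CD4 SP-like nuclei, against 9103 and 9412 CPM in DP-like nuclei (log2 fold change -2.60 ± 0.12, edgeR, adjusted p = 8.76e-08). The same list had 4 higher and 7 lower in early DN-like, 5 and 6 in gamma delta-like, and 5 and 7 in innate-like nuclei.

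Summed over all 34 members, the level was 2744 and 2785 CPM in epithelial-like and 2419 and 2425 CPM in dendritic-like nuclei, against 1298 and 1437 CPM in the T lineage. The sums of the 5 thymocyte groups stayed between 1060.2 and 1455 CPM. ZBTB1 supplied most of the excess in epithelial-like nuclei and ZBTB46 most of that in dendritic-like nuclei.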

How the data were processed

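The 2 chicken thymus libraries of 10x Genomics 3′ single-nucleus RNA were analysed. Values are UMI counts of each gene in each barcode, deposited by the authors as whole numbers and not normalized. Per the submitters' processing notes, Cell Ranger 7.0.1 and the GRCg7b assembly were used. The deposited matrices are named for CellBender, which subtracts free RNA, for which no source used here gives a version or settings. Cell types were rebuilt from the counts, without a deposited annotation.

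Nuclei needed at least 200 genes and at most 5% mitochondrial UMIs, which removed 1393 and 476 barcodes for few genes and 1 of replicate 2 for mitochondrial UMIs. The 6% of nuclei with the highest doublet score, a rate taken from an earlier analysis of these data, were removed (310 and 334). Counts were scaled to 10000, and 2000 variable genes, 30 principal components, 15 neighbours and Leiden clustering at resolution 1 (best of 10 seeds) gave 13 T-lineage and 7 other clusters. The 109 ZBTB and list genes in the table were not clustering features. Genes that vary with them were, so the tests are not free of the clustering. Names needed at least 3 detected markers. The naming rules, including a second round of clustering that separated CD4 SP-like from signalled nuclei, were adjusted after clusters and their ZBTB levels had been seen. The members and gene lists were chosen with earlier results of these data known. So were the naming markers GNLY, SH3RF3, SOX13, NR4A3, TNFRSF9 and PAPPA.

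UMIs were summed per library and group, for groups of at least 20 nuclei in each library. The sums were tested with edgeR 4.0.16 in R 4.3.3 (TMM, filterByExpr, glmQLFit, two-sided glmQLFTest), and the library entered each fit as a block, since groups of the same replicate number come from the same library. Thymocyte groups, classes and cycling states were fitted separately (4, 5 and 6 residual degrees of freedom), and p-values were adjusted after Benjamini and Hochberg over all genes, threshold 0.05. DESeq2 1.42.0 was an alternative. SEs come from the F statistic. Single-library differences use a prior count of 0.5. Floors of 3 counts and 95% intervals cover counting error only, and the floors only that of the group at 0. On simulated data for CD4 SP-like against DP-like nuclei, 7044 genes tested, 98% of 4-fold and 51% of 2-fold rises and 65.3% of 4-fold and 27.1% of 2-fold falls were recovered. The simulation gave every gene the same fixed dispersion and changed only genes above a minimum mean count. These rates therefore do not give the power for sparse or more variable members. Python 3.11.15 with leidenalg 0.10.2 was used.

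Members are named if they passed in a comparison, are among 9 known in lymphocytes (ZBTB16 had no row), or are among the 10 with most UMIs. Genes of related lists are examples in order of adjusted p. Alternatives were DESeq2, its size factors, 2 other filters on low counts, no library block, at least 400 genes per nucleus, separate UMIs for clustering and testing, resolution 1.5, called doublets kept, cycling clusters left out, each library alone, and, added after seeing the data, a deeper epithelial-like cluster left out and the DNTT-led cluster counted as DP-like. No sequences were printed because none was given with the annotation.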

Additional observations from a re-analysis of the deposited data

How the results depend on the processing

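Of the 20 calls of a member in the thymocyte and class comparisons, 11 passed in every alternative that gave a test, 9 lost the threshold in at least 1, and 0 changed sign. The counts of members called moved as follows. In early DN-like nuclei the count was 1, and 2 without the filter on low counts and with at least 50 UMIs in all. In CD4 SP-like nuclei it was 5, and 3 with DESeq2 size factors, with DESeq2, with at least 400 genes per nucleus and with separate UMIs for clusters and tests. In gamma delta-like nuclei it was 4, 0 with DESeq2, and 2 with at least 400 genes (both kept), at resolution 1.5 (both kept), with separate UMIs (1 kept, ZBTB37, and ZBTB10 added) and without cycling clusters (0 kept, ZBTB1 and ZBTB21 added). With the DNTT-led cluster as DP-like it was 3, without ZBTB32. In epithelial-like nuclei it was 4, 8 without the filter (ZBTB2, ZBTB8OS, ZBTB20 and ZBTB44 added), 7 with at least 50 UMIs and 2 with separate UMIs, where only 2 members were tested. B-like nuclei had 0, and 1 with DESeq2. Macrophage-like nuclei had 0, and 2 (ZBTB20 and ZBTB44) without the filter or with at least 50 UMIs. Innate-like (5), dendritic-like (1), erythroid-like (0) and both cycling counts (3 and 2) stayed within 1.5 times. Without the replicate block the counts were 2 in CD4 SP-like and 1 in gamma delta-like nuclei, and no other count left that range. In epithelial-like nuclei 1782 genes passed in all, and 4475 without the filter. The causes of these moves were not tested beyond the number of genes or UMIs each setting leaves. DESeq2 size factors moved the median of all genes by 0.134 to 0.255 on the log2 scale in B-like, macrophage-like, dendritic-like and erythroid-like nuclei, and no called member changed direction. Resolution 1.5 named no CD4 SP-like group, leaving out cycling clusters left no early DN-like group, the stricter gene minimum left too few erythroid-like nuclei in replicate 1, and separate UMIs or kept doublets left no resting gamma delta-like group, so these gave no value. With 1 library there is no residual spread and no test. Depth limits the classes most: 6 members were testable there against 24 in thymocytes.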
